A study of Mus musculus with 3 samples.

Results

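Fn1, Spp1, Sparc, Thbs1, Thbs2, Thbs3, Tnc and Postn, which encode fibronectin and 7 matricellular proteins, were taken by gene symbol from a table of 24421 genes. All 8 symbols were found. RNA came from JB6 P+ cells, a mouse epidermal line in which tumour promoters induce transformation and which the labels call epithelial cells of the skin. Each group had 1 library. One came from cells labelled control. For the second, cells received TPA, a phorbol ester that activates protein kinase C, at 10 ng/mL, and for the third the same TPA with 50 nM of the synthetic triterpenoid CDDO; both were dosed every second day during 5 days, with serum at 1%. The labels name no vehicle and do not say how the control was kept. The column taken as CDDO+TPA names CDDO but not TPA. It was matched as the only column that names CDDO, so statements on CDDO+TPA rest on that match.

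Matricellular proteins are secreted into the matrix around cells but, unlike collagens, mostly regulate adhesion and signalling rather than bear load. Fibronectin is the structural partner: integrins stretch its dimers into fibrils, on which collagens, thrombospondins and tenascin-C then bind. In skin these genes are low in resting epidermis and are known for their induction in wounds, in the stroma of tumours and on exposure to TGF-beta. Loss of the fibronectin matrix is a classical trait of transformed fibroblasts, and osteopontin, the product of Spp1, is a classical phorbol ester response gene of this cell line.

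The 3 libraries held 7813035 to 8190078 reads assigned to genes. Levels are scaled read counts (CPM, reads of a gene in 1000000 assigned reads after scaling of the library), and 3 values in a row stand for control, then TPA, then CDDO+TPA. Of 12 keratinocyte markers 3 were measured, Krt10 with 13.0, 9.16 and 6.59 CPM, and Dsp and Krt8 with at most 1.26 and 1.01 CPM. Krt5, Krt1, Krt15, Krt18 and Epcam had 0 reads in every library, and the list summed to 14.4, 11.5 and 8.87 CPM. Of 12 mesenchymal markers 11 were measured, and they summed to 1969, 1367 and 1560 CPM. Defining markers of the labelled epithelial type were thus absent or low, while mesenchymal markers were abundant. Of 8 leukocyte markers 2 were measured, the lysosomal gene Cd68 with 22.1, 52.2 and 71.2 CPM and Lyz2 with 6.12, 2.01 and 8.36 CPM. The list summed to 28.5, 55.1 and 80.3 CPM, while Ptprc and Cd3e, which mark leukocytes and T cells, had 0 reads in every library. The 6 endothelial markers summed to 0.874, 2.39 and 1.14 CPM. With no replicate, no difference below has a test, and each interval is a 95% counting interval that leaves out the spread between cultures.

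The promoters of Tnc and Sparc are shown because among the 6 members with at least 10 CPM in every library these differed most between TPA and control, and that of Spp1 because it differed least. They are shown 5′ to 3′ for the 250 bases before the transcription start (RefSeq, GRCm38.p6), with a TATA box (TATAAA) or GC box (GGGCGG) in capitals.
Tnc, chr4:64047016-64047265, minus strand: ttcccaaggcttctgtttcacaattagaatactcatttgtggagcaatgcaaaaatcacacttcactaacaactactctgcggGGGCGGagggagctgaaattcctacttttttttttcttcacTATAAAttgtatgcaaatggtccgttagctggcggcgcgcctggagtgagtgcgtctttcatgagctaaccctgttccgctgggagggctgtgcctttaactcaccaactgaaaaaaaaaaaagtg
Sparc, chr11:55420081-55420330, minus strand: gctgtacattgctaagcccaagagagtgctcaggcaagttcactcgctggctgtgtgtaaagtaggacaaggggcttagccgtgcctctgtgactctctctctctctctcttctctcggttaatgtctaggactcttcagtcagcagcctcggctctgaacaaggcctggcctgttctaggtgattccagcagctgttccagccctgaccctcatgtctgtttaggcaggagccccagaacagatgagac
Spp1, chr5:104434861-104435110, plus strand: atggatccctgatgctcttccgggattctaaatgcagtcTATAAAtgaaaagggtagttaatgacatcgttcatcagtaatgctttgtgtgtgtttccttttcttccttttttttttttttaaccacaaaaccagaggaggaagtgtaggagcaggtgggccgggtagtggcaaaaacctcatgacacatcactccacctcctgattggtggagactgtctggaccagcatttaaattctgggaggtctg
RefSeq promoter entries matched 6 of the 8 members, in 9 windows of 300 bases that also take in the first 50 transcribed bases; Fn1 and Thbs1 did not match. Both strands were searched for 7 motifs.

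None of the 9 windows held the AP-1 motif TGANTCA, the CRE motif TGACGTCA, the TEAD motif GGAATG or the SRF CArG box. Among all 32851 windows of that length in the promoter set these were present in 7.81%, 1.79%, 14.7% and 1.63%. The TATA box letters, present in 13.6% of all windows, began 126 bases before the start in Tnc and in Thbs2, in Thbs2 on the opposite strand. They began 26 bases before it in Postn and 211 bases before it in Spp1. The GC box, present in 35.7%, was found in Tnc, 167 bases before the start, and in Thbs3, 21 bases before it on the opposite strand. Counted from the other Tnc start, its TATA and GC letters began 205 and 246 bases before. The antioxidant response element TGACNNNGC, present in 12.4%, was found once, in a Postn window whose start lies 1840 bases from that in the counted annotation. The Sparc window held none of the 7 motifs. These matches describe letters in short windows only.

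Levels of different genes were compared per exonic length, as CPM per kilobase of exon (RPKM). Fn1 and Spp1 stood among the most abundant transcripts of these cells. Fn1 had 180, 129 and 165 RPKM and Spp1 had 147, 146 and 161 RPKM. Fn1 ranked 20 of the 13100 genes compared in the control library, 171 in the TPA library and 38 in the CDDO+TPA library. Spp1 ranked 83, 107 and 42. A gene was compared if any library held 1 CPM or more of it. Sparc followed with 68.6, 31.4 and 52.8 RPKM, Thbs1 with 26.0, 24.3 and 41.5 RPKM, Thbs3 with 14.1, 14.1 and 19.9 RPKM, and Tnc with 1.90, 5.32 and 6.91 RPKM. Thbs2 and Postn stayed at or below 0.341 RPKM in every library. The order of the first 6 was the same in the control and CDDO+TPA libraries, and Spp1 stood above Fn1 in the TPA library. Fn1 and Spp1 were 1.23-fold apart in control (1.17 to 1.29), and in the CDDO+TPA library their counting interval included no difference (1.02-fold, 0.976 to 1.07). All other neighbours among the first 6 differed beyond counting error in each library. Fn1 alone took 70.5%, 66.4% and 64.6% of the members' reads.

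**Figure D1:**
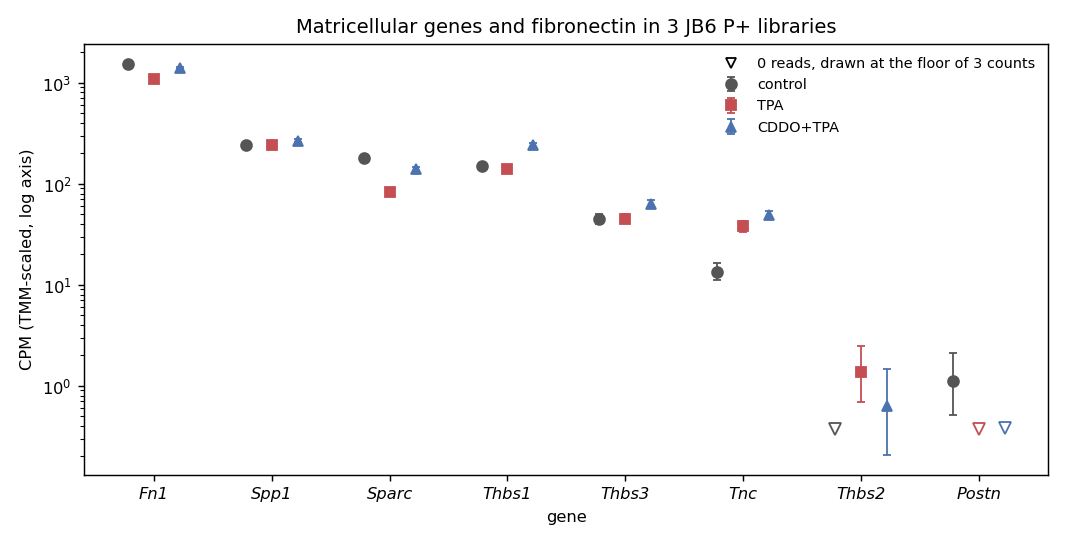
CPM of the 8 genes on a log axis in the control (circles), TPA (squares) and CDDO+TPA (triangles) libraries, with exact 95% Poisson intervals; open triangles stand for 0 reads, drawn at the floor of 3 counts. Fn1 lies above the other 7 genes in each library. Across the libraries, Tnc has its lowest value in control and Sparc its lowest in TPA. Thbs2 and Postn lie near the floor.

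Reads per exonic base stayed below 2 in every library. The highest value among 22658 genes of at least 500 exonic bases was 1.76 in control, 1.83 in TPA and 1.73 in CDDO+TPA, in each case for the elongation factor gene Eef2. The file's column names carry a mark of duplicate removal. Fn1 held 1.44, 1.03 and 1.30 reads per base and Spp1 held 1.17, 1.17 and 1.27, whereas Sparc held at most 0.550, Thbs1 0.328, Thbs3 0.157 and Tnc 0.0545. Whether removal of duplicates by position narrowed the differences of Fn1 and Spp1 between libraries was not tested. Its part in their RPKM, their ranks and the ratio between them was not tested either. With an assumed ceiling of 2 reads per base, an alternative chosen after seeing the data, the Fn1 ratio of TPA to control would be 1.77-fold lower in place of 1.40-fold, and that of Spp1 would be 1.01-fold lower in place of 1.00-fold.

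**Figure D2:**
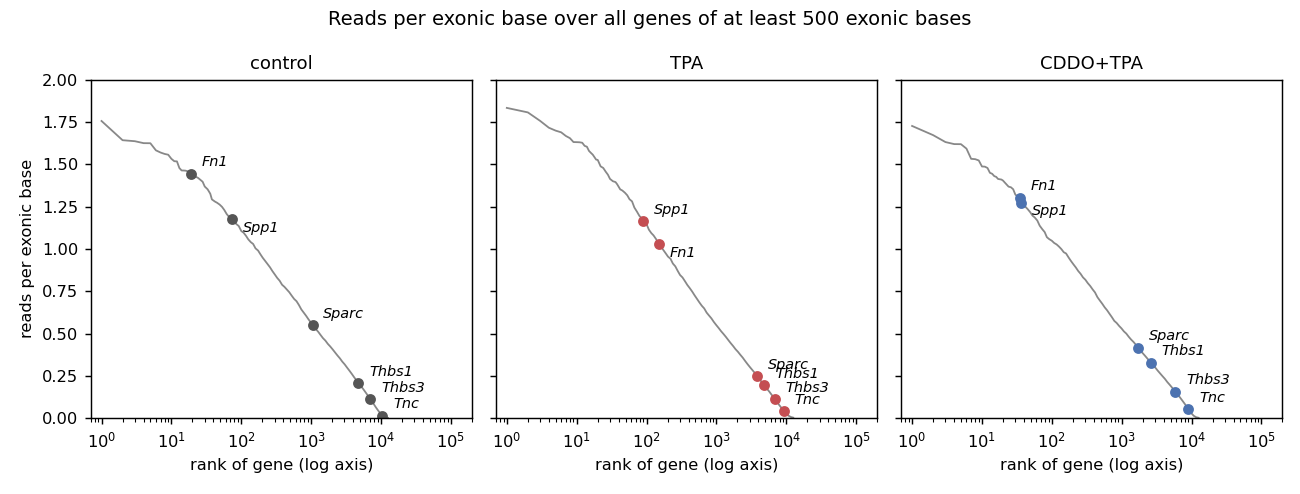
Reads per exonic base against the rank of each gene (log axis) in the 3 libraries, grey line, with 6 of the genes as points. The line stays below 2 reads per base at its top; Fn1 and Spp1 sit on its upper part, above 1 read per base, and Sparc, Thbs1, Thbs3 and Tnc on its lower part.

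Setting TPA beside control shows how these matrix genes differed in cells given the tumour promoter alone. Fibronectin and SPARC transcripts were lower and tenascin-C transcripts higher in the TPA library, whereas osteopontin, thrombospondin-1 and thrombospondin-3 transcripts were nearly level. The size rule asks for a ratio of 2 or more in either direction (log2 of 1) whose counting interval leaves out equality. It was met by 4 of the 8 genes: Tnc and Thbs2 were higher, and Sparc and Postn lower. Of all genes compared, 15.5% met it, 9.57% higher and 5.91% lower, and of the 9890 genes with a mean of at least 10 CPM, 8.67%. Thbs2 and Postn entered the comparison only through a library in which they exceeded 1 CPM, so their differences follow in part from the filter. The 6 members with at least 10 CPM in every library had a median log2 fold change of -0.05, beside -0.04 for all genes with a mean of at least 10 CPM.

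Fn1, the gene of the main adhesive glycoprotein of the provisional matrix, had 1519, 1087 and 1391 CPM. It was highest in control and lowest in the TPA library. The TPA value was 1.40-fold lower (1.36 to 1.44), a log2 fold change of -0.48, which did not meet the size rule. Of the genes compared, 41.0% differed by more in size. The sum of the 12 mesenchymal markers was also lowest in the TPA library, but its genes did not move together. Of the 11 measured, 6 were lower in the TPA library than in control, among them the collagen gene Col1a1 with 529, 152 and 267 CPM. The other 5 were higher, among them Vim (vimentin) with 268, 369 and 356 CPM and Prrx1, a mesenchymal transcription factor, with 88.6, 147 and 167 CPM. Their part in the values of Fn1 and Sparc was not tested. In RNA from whole cultures, fewer cells of a type and less RNA per cell cannot be told apart. Fn1 lies on chromosome 1, 71585473 to 71653234, minus strand (mm10, as all positions from the counted annotation), with 8425 exonic bases. The gene count does not separate the spliced forms of fibronectin.

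Spp1, the gene of osteopontin, an acidic phosphoprotein that binds integrins and CD44, had 243, 243 and 268 CPM. The control and TPA libraries were level, with a ratio of 0.998 (0.937 to 1.06). Osteopontin belongs to a family of bone and tooth matrix phosphoproteins whose other genes, Ibsp, Dmp1, Mepe and Dspp, lie beside Spp1 on chromosome 5. Ibsp, Mepe and Dspp had 0 reads in every library and Dmp1 had 0, 1 and 1, so Spp1 was the only one of the cluster measured above the filter.

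Sparc, which encodes a calcium-binding glycoprotein that binds collagen and loosens cell adhesion, had 181, 83.0 and 140 CPM. The TPA library was 2.18-fold below control (1.99 to 2.40), and the CDDO+TPA library lay between them. Its log2 fold change of -1.12 was just past the rule. It was no longer past it when the interval was widened for cultures assumed to vary by 0.4 of their mean. Sparc lies on chromosome 11, 55394159 to 55420080, minus strand. Among its relatives with the same type of calcium-binding module, Fstl1 had 261, 104 and 148 CPM and was 2.52-fold lower in the TPA library (2.32 to 2.74), and Sparcl1 had 12, 1 and 8 reads. Smoc1 had 74.1, 71.1 and 65.9 CPM, and Spock2 had 6.12, 10.5 and 4.31 CPM.

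The thrombospondins did not move together. Thbs1, which encodes a trimer that activates latent TGF-beta and inhibits angiogenesis, had 151, 141 and 241 CPM, highest in the CDDO+TPA library. Its control and TPA values differed by less than counting error, with a ratio of 0.932 (0.858 to 1.01). Thbs3, the gene of a pentameric member of the family, had 44.8, 44.9 and 63.2 CPM, with a ratio of 1.00 (0.864 to 1.16) between TPA and control. Per exonic length Thbs1 stood 1.85-fold above Thbs3 in control (1.64 to 2.09), 1.72-fold in TPA (1.52 to 1.94) and 2.09-fold in CDDO+TPA (1.89 to 2.31).

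Thbs2, whose trimeric product is closest to that of Thbs1, had 0, 11 and 5 reads. A count of 0 is compatible with up to 3 counts, 0.374 CPM in control, and the TPA level was 3.69 times that floor. The counting interval of the ratio began at 2.52-fold higher and had no upper end. Its level was 1.38 CPM (0.689 to 2.47), so that Thbs2 made up little of the thrombospondin RNA in any library. Its pentameric relatives Comp and Thbs4 had 1, 13 and 2 reads and 0, 1 and 2 reads. Thbs1, Thbs2 and Thbs3 summed to 196, 187 and 305 CPM. In the counted annotation no exon of any member overlaps that of another gene; Mtx1, on the other strand, lies 851 bases upstream of Thbs3 and had 63.3, 69.0 and 52.7 CPM.

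Tnc, the gene of tenascin-C, a hexamer that weakens adhesion to fibronectin, had 13.5, 37.8 and 49.0 CPM. Both TPA-treated libraries lay above control, and their intervals of 33.6 to 42.3 and 44.3 to 54.2 CPM did not reach the control interval of 11.1 to 16.3 CPM. The TPA library was 2.80-fold higher than control (2.24 to 3.53), and 9.22% of the genes compared differed by more in size. With the interval widened for that culture variation it no longer met the rule. Tnc lies on chromosome 4, 63959785 to 64047015, minus strand. Of the other tenascin genes, Tnxb and Tnn were also higher past the rule in the TPA library. Tnxb had 29.0, 66.2 and 60.1 CPM, 2.29-fold higher (1.95 to 2.68). Tnn had 3, 13 and 8 reads and passed the filter only through the TPA-treated libraries, so its call follows in part from the filter. The neural tenascin gene Tnr had 5, 1 and 7 reads.

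Postn, the gene of periostin, a fasciclin-domain protein of fibroblasts that is known for its induction by TGF-beta, had 9, 0 and 0 reads. The control level was 1.12 CPM (0.514 to 2.13). That is 2.98 times what 3 counts would give under TPA, and the counting interval of the difference began at 1.96-fold lower. It was no longer past the rule with the widened interval. At so few reads the size of the difference is poorly known.

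**Figure D3:**
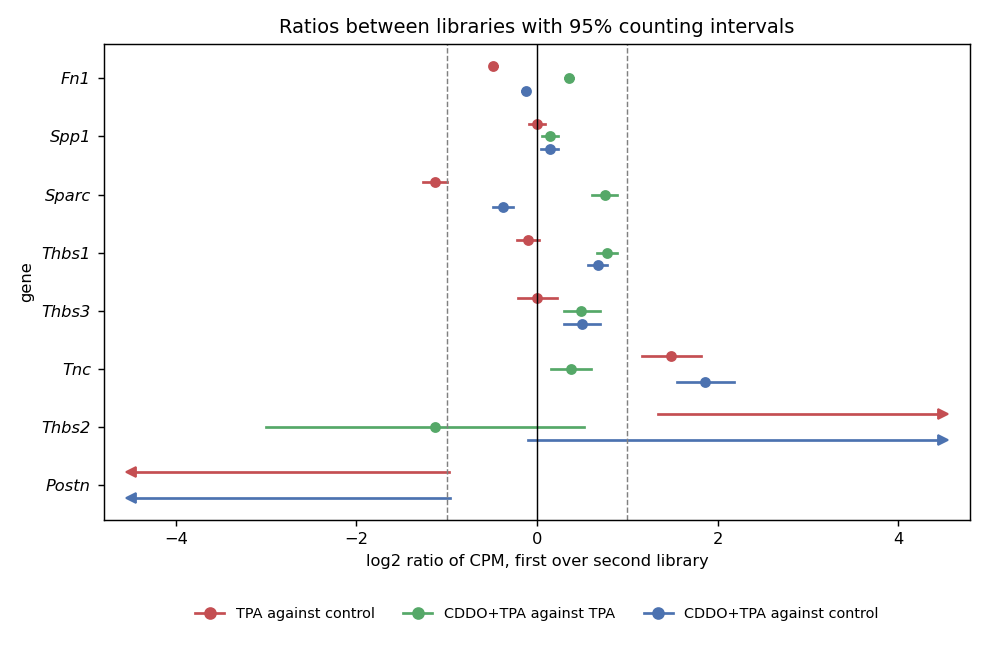
Log2 ratio of CPM between libraries for each gene with 95% counting intervals, for 3 comparisons; dashed lines mark 1 and -1, and arrows mark intervals that have no end because 1 library had 0 reads. Tnc lies right of 1 over control in both treated libraries, Sparc left of -1 in TPA over control, and the 6 points of CDDO+TPA over TPA from Fn1 to Tnc lie between 0 and 1.

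Set against TPA alone, the CDDO+TPA library shows what was different when the triterpenoid was added. None of the 8 genes met the size rule. It was met by 15.6% of all genes compared, 7.87% higher and 7.78% lower, and by 7.57% of those with a mean of at least 10 CPM. The latter split into 522 higher and 227 lower. All 6 members with at least 10 CPM in every library were higher in the CDDO+TPA library with a counting interval that excluded no change; of all genes with that mean, 36.4% were higher by that mark. Their median log2 fold change was 0.43, beside 0.02 for all genes with a mean of at least 10 CPM. The 6 genes share the same pair of libraries and are not independent.

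Of these 6, Thbs1 differed most, 1.71-fold higher (1.59 to 1.84), and Sparc nearly as much, 1.68-fold higher (1.53 to 1.85). Thbs3 was 1.41-fold higher (1.23 to 1.62), Tnc 1.30-fold (1.11 to 1.51) and Fn1 1.28-fold (1.24 to 1.32). Spp1 differed least, 1.10-fold higher (1.04 to 1.17). Thbs2, with 11 and 5 reads, had a ratio of 0.459 with an interval from 0.125 to 1.43, so no difference was detectable at this depth, and Postn had 0 reads in both libraries.

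**Figure D4:**
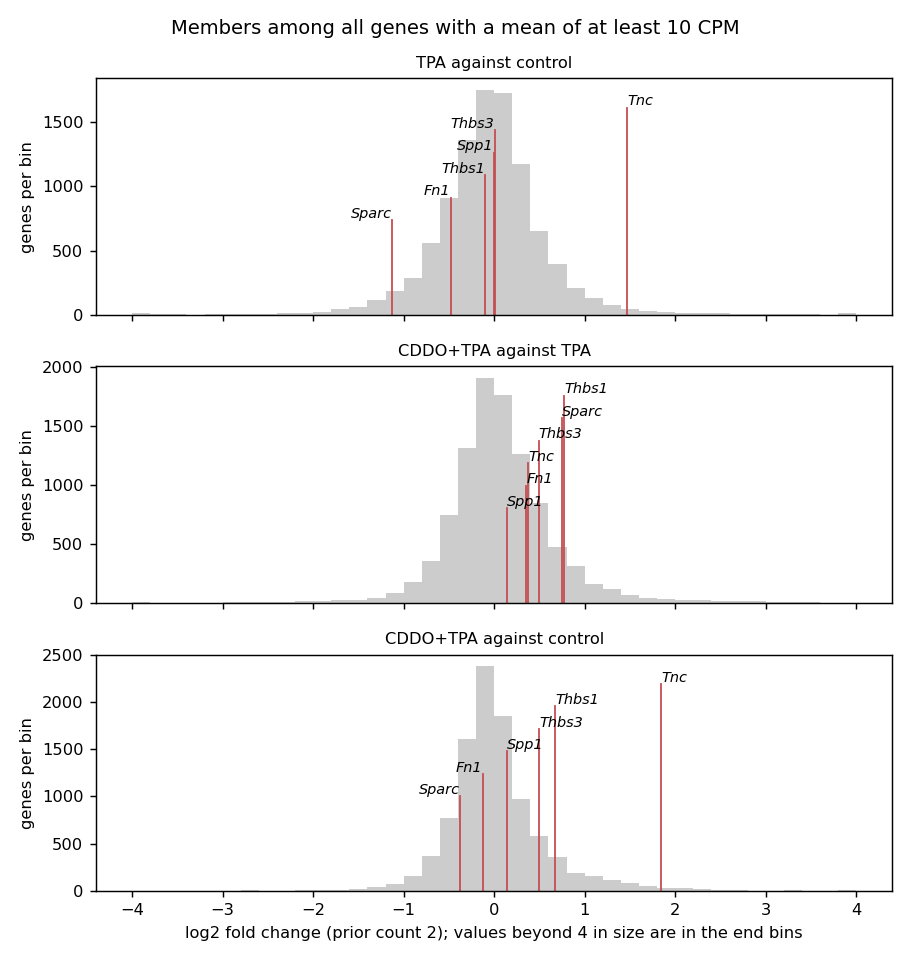
Histograms of log2 fold changes over the 9890 genes with a mean of at least 10 CPM in 3 comparisons, with 6 of the genes as labelled lines. Sparc and Tnc lie in opposite flanks in the TPA panel. In the panel of CDDO+TPA against TPA all 6 lie right of 0, and in the last panel Tnc is farthest to the right.

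CDDO+TPA was also set against control, which asks what remained different with both agents. This comparison shares its libraries with those above. Of the 8 genes Tnc was higher and Postn lower past the size rule, which 11.4% of all genes compared met, 8.02% higher and 3.37% lower, and 6.79% of those with a mean of at least 10 CPM. Tnc was 3.64-fold higher (2.93 to 4.55) and, unlike in the TPA library, met the rule also with the widened interval. Postn, with 9 reads in control and 0 in CDDO+TPA, did not meet it with that interval. It passed the filter only through the control library, so its difference follows in part from the filter. Thbs1 and Thbs3, level between TPA and control, were 1.60-fold (1.48 to 1.72) and 1.41-fold (1.23 to 1.62) above control. Fn1 was 1.09-fold lower (1.06 to 1.12) and Sparc 1.30-fold lower (1.20 to 1.41), and Spp1 was 1.10-fold higher (1.03 to 1.17). Summed over the 8 genes, the libraries held 2154, 1638 and 2152 CPM, a sum that is mostly Fn1. Without Fn1 the other 7 summed to 635, 551 and 761 CPM, highest in the CDDO+TPA library.

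Other secreted and matrix glycoproteins were examined as a list of 33 genes, of which 20 were measured. Between TPA and control 3 were higher, 8 were lower and 9 did not pass, beside 9.57% higher and 5.91% lower of all genes compared. The median log2 fold change was -0.32, beside 0.00 for all genes compared. Igfbp7, an IGF-binding matrix protein, was 4.53-fold lower (3.79 to 5.46), with 83.1, 18.3 and 31.9 CPM. Wisp1, a CCN family gene, was 3.43-fold lower (3.15 to 3.75), with 287, 83.7 and 88.9 CPM. Dpt, the gene of dermatopontin, which binds fibronectin and decorin, was 4.12-fold lower (2.83 to 6.14). In CDDO+TPA against TPA 5 were higher and 2 lower, where 15.6% of all genes met the rule. The median was 0.57, beside 0.01 for all genes compared. Nid1, the basement membrane linker nidogen-1, was 3.51-fold higher (3.31 to 3.71), with 217, 197 and 690 CPM, and the CCN gene Ctgf was 2.60-fold higher (2.10 to 3.22). Spock2, a proteoglycan related to SPARC, was 2.45-fold lower (1.63 to 3.76). Comp, with 1, 13 and 2 reads, was among the 3 higher in TPA against control and the 2 lower in CDDO+TPA against TPA. It passed the filter only through the TPA library, so both calls follow in part from the filter. Tnn, also among the 3 higher, passed it only through the TPA-treated libraries. Sparcl1, with 12, 1 and 8 reads, was among the 8 lower in TPA against control and the 5 higher in CDDO+TPA against TPA. It passed only through the control and CDDO+TPA libraries. The calls of Tnn and Sparcl1 thus also follow in part from the filter.

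Of 20 listed receptors of these proteins, 13 were measured. In TPA against control 1 was higher and 2 were lower, 23.1% of the list beside 15.5% of all genes, with a median of -0.28. Cd47, the thrombospondin-1 receptor, had 85.1, 37.3 and 55.6 CPM and was 2.28-fold lower (1.99 to 2.62). Itgb5, a partner of the alpha-v integrin chain, had 242, 117 and 157 CPM and was 2.07-fold lower (1.91 to 2.24). The third was Stab1, a scavenger receptor that takes up SPARC, with 5, 15 and 4 reads. Itga5 and Itgb1 form the main fibronectin receptor; Itga5 had 179, 271 and 180 CPM, highest in the TPA library, and Itgb1 had 521, 389 and 461 CPM, lowest there. Cd44, the osteopontin and hyaluronan receptor, had 358, 254 and 359 CPM. In CDDO+TPA against TPA 0 receptors were higher and 1, Stab1, was lower past the rule, 7.69% of the list beside 15.6% of all genes. Stab1 passed the filter only through the TPA library, so both its calls follow in part from the filter.

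Among 15 measured genes of fibronectin assembly, cross-linking and adhesion linkage, 0 were higher and 3 lower in TPA against control (20% of the list, beside 15.5% of all genes), with a median of -0.16. They were Fbn1 (fibrillin-1, whose fibrils need fibronectin to form), 2.40-fold lower (2.13 to 2.72), Fbln1 (fibulin-1, a fibronectin-binding protein), 2.91-fold lower (2.39 to 3.56), and the cross-linking enzyme gene Lox, with 23, 8 and 0 reads. Fbn1 and Fbln1 were 2.14-fold (1.89 to 2.42) and 3.05-fold (2.51 to 3.72) higher in CDDO+TPA against TPA, and Lox was lower. Tgm2, a transglutaminase that binds fibronectin, had 55, 88 and 174 reads and was 3.21-fold higher than control in the CDDO+TPA library (2.36 to 4.43).

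Of 17 genes for TGF-beta ligands, latency proteins, receptors and SMADs, 2 were higher and 0 lower in TPA against control. This was 11.8% of the list, beside 15.5% of all genes and 8.67% of those with a mean of at least 10 CPM. Both genes had few reads: Tgfb2 had 24, 56 and 18 and Ltbp2 had 1, 13 and 1. Both were lower in CDDO+TPA against TPA, where 15.6% of all genes met the rule and 7.57% of those with that mean. Ltbp2 passed the filter only through the TPA library, so its calls follow in part from the filter. Tgfb1 had 56.3, 82.9 and 102 CPM, below the rule. Of 24 transcription regulators known to act on these genes, Runx1 alone met the rule in TPA against control. It had 125, 285 and 179 CPM and was 2.29-fold higher (2.12 to 2.47). In CDDO+TPA against TPA 0 regulators met the rule, beside 15.6% of all genes and 7.57% of those with a mean of at least 10 CPM.

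Of 14 measured proteases that cut these or related matrix proteins, 4 were higher and 2 lower in TPA against control, and 2 higher and 3 lower in CDDO+TPA against TPA. All genes met the rule in 15.5% and 15.6% of cases. Mmp9, with 1, 9 and 1 reads, and F2, with 0, 10 and 0, are among these 4 higher and 3 lower. Both passed the filter only through the TPA library, so their calls follow in part from the filter. Adamts5, an aggrecanase, had 625, 11 and 87 reads, 56.5-fold lower in the TPA library (31.3 to 114) and 7.98-fold higher in CDDO+TPA against TPA (4.25 to 16.6). Mmp3, stromelysin-1, had 1.87, 11.8 and 8.11 CPM, and Htra1, a serine protease that cleaves fibronectin, had 29.2, 8.79 and 13.2 CPM, 3.32-fold lower in the TPA library (2.53 to 4.40). Adamts4, the other aggrecanase listed, was 3.16-fold higher in CDDO+TPA against TPA (2.17 to 4.71).

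**Figure D5:**
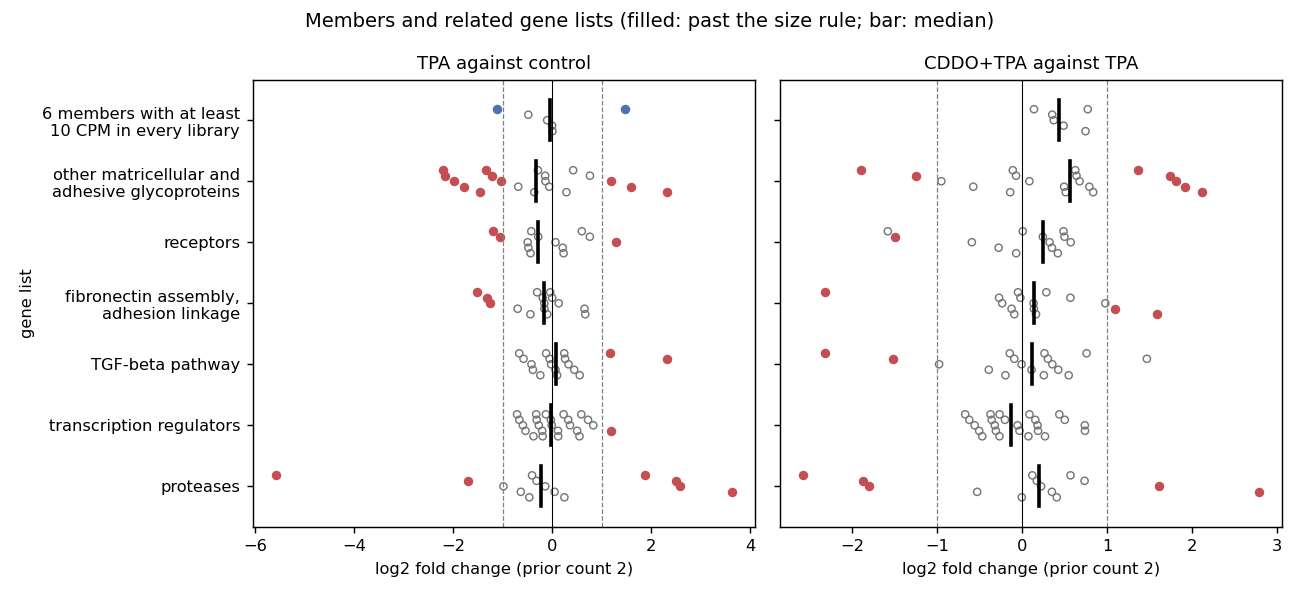
Log2 fold changes of 6 of the genes and of the measured genes of 6 related lists, for TPA over control (left) and CDDO+TPA over TPA (right); filled points met the size rule, black bars are medians and dashed lines mark 1 and -1. In the left panel 2 of the 6 genes are filled and in the right panel none is, where all 6 lie right of 0.

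Genes with the most similar pattern were sought among the 9890 with a mean of at least 10 CPM, by the distance between pairs of log2 fold changes (TPA over control, CDDO+TPA over TPA). Likeness over 3 libraries is weak: 1013 genes lay within 0.25 of Fn1 and 1725 within 0.25 of Spp1. The nearest to Fn1 were Cxcl12, with 56.4, 40.3 and 51.6 CPM, and the integrin gene Itgav, with 386, 276 and 353 CPM. Fewer genes lay within 0.25 of Thbs3 (455), Thbs1 (188) and Sparc (126), and 13 within 0.25 of Tnc. The nearest to Tnc were Gins2, a replication gene, with 6.49, 17.8 and 23.7 CPM, and Gnaz, with 4.49, 12.4 and 17.1 CPM. The nearest to Sparc were Ttc17 and Tbc1d7, to Thbs1 Tubb2a and Akap7, to Thbs3 Rpap3 and Wipi1, and to Spp1 Clasp2 and Rtcb.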

How the data were processed

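Total RNA of 3 libraries was sequenced. The deposited table holds raw read counts by gene symbol. Per the file headers, featureCounts 1.5.3 counted primary alignments over UCSC gene models of mm10; no strand option was given, and the column names mark duplicates as removed. The submitters' processing notes also name HISAT2, Picard and DESeq. The 8 genes, the lists, the motifs and the naming rule were chosen with earlier results of these data known. By that rule the text names the 8 genes, up to 3 highest and 3 lowest genes past the size rule per list with at least 10 CPM in 1 library, and the 2 nearest patterns; family relatives, low-count list genes, Itga5, Itgb1, Cd44 and Tgfb1 were added after their values were seen.

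Counts were scaled by TMM factors (edgeR 4.0.16, R 4.3.3) of 0.978, 1.02 and 1.00. Log2 fold changes use a prior count of 2. Folds are ratios of CPM without it, with exact conditional binomial 95% intervals (scipy 1.17.1), and the calculation was tested on simulated data. RPKM is CPM per kilobase of exonic length in the deposited table. With 7813035 to 8190078 reads, 1 read is 0.125 to 0.127 CPM. No p-value was computed. Protein sequences were not used here. Alternatives covered scaling (including DESeq2 1.42.0 size factors), prior count, filter, interval and the ceiling on reads per base.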

Additional observations from a re-analysis of the deposited data

How the results depend on the processing

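No paired analysis was possible because each group has 1 library and the labels give no replicate numbers; no library could be left out for the same reason. Under DESeq2 size factors, total reads, upper-quartile factors, prior counts of 0.5 and 5, and no filter, the members past the size rule stayed at 4 in TPA against control, 0 in CDDO+TPA against TPA and 2 in CDDO+TPA against control. With the interval widened for an assumed coefficient of variation of 0.4 these were 1 (Thbs2), 0 and 1 (Tnc). Over all genes they were 822, 858 and 547 in place of 2028, 2050 and 1493. The widened interval is a normal one on the log ratio, with 0.5 added to each count. The Thbs2 result, from 0 reads in control and 11 in TPA, thus rests on that addition, and Thbs2 entered only through the TPA library. When genes had to average 10 CPM or more, an alternative added after seeing the data, Thbs2 and Postn drop out, the members past the rule were 2, 0 and 1, and the genes past it 857, 749 and 672. In TPA against control the latter split into 381 higher and 476 lower, beside 1254 and 774 before. The log2 fold change of Fn1 in TPA against control was -0.42 with total reads or upper-quartile factors and -0.82 with the assumed ceiling of 2 reads per base, also added after seeing the data. That of Spp1 in TPA against control lay between -0.01 and 0.06 over all settings, and its sign is not determined. Depth limits Thbs2 and Postn, which had at most 11 and 9 reads.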

Other observations

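Osteopontin and SPARC are also major proteins of bone matrix, so markers of bone cells were read in the same libraries. Of 5 listed, Ibsp had 0 reads in every library, Bglap, which encodes osteocalcin, had 0, 7 and 3, Sp7, an osteoblast transcription factor, had 0, 2 and 1, and Alpl, the alkaline phosphatase, had 10, 26 and 3. The list summed to 1.25, 4.52 and 1.01 CPM, beside 243, 243 and 268 CPM for Spp1. Of the adhesive glycoproteins, Vtn, the gene of vitronectin, had 0 reads in every library, and Tgfbi, a relative of Postn with the same fasciclin domains, had 0, 1 and 1.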
